A study of Mus musculus with 4 samples.

Results

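The cells described here were Cd5l/Spp1 cells, myeloid cells of the mouse brain that carried RNA of both Cd5l and Spp1 with little Lyz2. They were taken from all 4 deposited single-cell matrices. A cell was kept with at least 500 detected genes, at least 1000 unique molecular identifiers (UMIs, each standing for 1 captured RNA molecule) and at most 10% of its UMIs from mitochondrial genes. A kept cell was a member with at least 1 UMI of Cd5l, at least 50 UMIs of Spp1 per 10000 of its total, under 100 UMIs of Lyz2 per 10000, and fewer than 3 of the border-associated macrophage markers Mrc1, Cbr2, F13a1, Cd163 and Lyve1 detected. Of 8018 kept cells, 224 were members, or 2.79%. The rule used the same counts that are described below, so the levels of its genes and every contrast with other cells are descriptions with no test.

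Cd5l encodes CD5-like antigen, also called AIM, a secreted scavenger-receptor-family protein that macrophages make, in many tissues under control of the liver X receptors that sense cholesterol derivatives. Spp1 encodes osteopontin, a secreted phosphoprotein that binds integrins and CD44 and is made by macrophages and microglia around damaged tissue. Igf1 encodes a secreted growth factor, Apoc1 a small lipoprotein-bound apolipoprotein and Plin2 a coat protein of lipid droplets. Microglia, the resident macrophages of the brain, keep the transcription factor gene Sall1 and the surface protein genes Siglech, P2ry12 and Tmem119 on when undisturbed and lower them when activated, while Ms4a7 and Ccr2 are used to mark macrophages and monocytes that came from blood or from the brain's borders.

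The study compared brains after sham surgery and after cerebrovascular injury (CVI), in IL-6 wild-type (WT, +/+) mice and in IL-6 knockout (KO, -/-) mice. IL-6 is a cytokine that signals through STAT3. Each of the 4 groups, WT sham, WT CVI, IL-6 KO sham and IL-6 KO CVI, was 1 mouse and 1 library. The injury was made by thinning the skull and disrupting vessels beneath it with intravenous microspheres in mice 8 to 12 weeks old, and tissue was taken with a 4 mm punch at day 6 and enriched for CD11b+ myeloid cells with magnetic beads. The labels name a mild and a severe form of the injury without saying which was used, describe the controls both as sham-operated and as uninjured, and do not give the deleted part of Il6. The knockout is not described as limited to a cell type. With 1 mouse a group, no p-value is given, and every interval printed is a 95% interval of counting error, not of the difference between mice.

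The stretch of 250 bases before the RefSeq start of the genes that name the cells is shown because both genes were on together in the members. The coordinates are on GRCm38.p6, both on the plus strand, chr3:87357631-87357880 for Cd5l and chr5:104434861-104435110 for the first of 2 listed starts of Spp1. The genes themselves lie on chromosome 3 from 87357881 to 87371073 and on chromosome 5 from 104435118 to 104441050 in GRCm38, and Igf1, Plin2 and Apoc1 on chromosomes 10, 4 and 7. Capitals mark a match to the PU.1 core.
Cd5l: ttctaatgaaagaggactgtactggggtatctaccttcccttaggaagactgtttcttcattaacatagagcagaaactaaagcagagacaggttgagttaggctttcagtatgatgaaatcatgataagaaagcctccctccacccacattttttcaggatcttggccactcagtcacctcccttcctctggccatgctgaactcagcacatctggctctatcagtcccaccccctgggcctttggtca
Spp1: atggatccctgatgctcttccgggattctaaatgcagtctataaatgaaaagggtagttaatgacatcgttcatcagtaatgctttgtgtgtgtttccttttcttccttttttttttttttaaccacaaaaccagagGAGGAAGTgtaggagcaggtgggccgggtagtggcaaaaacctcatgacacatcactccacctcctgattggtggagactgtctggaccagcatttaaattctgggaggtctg
Both strands were searched for the PU.1 core GAGGAAGT, the AP-1 motif TGANTCA, the E-box CACGTG and AGGTCA, the hexamer that nuclear receptors bind, none of which lies within another. The Cd5l stretch held none of these, and the Spp1 stretch held 1 PU.1 core, at position 138 from its left end, and none of the others. Among 32851 RefSeq promoter stretches of the same length, 2.44% held the PU.1 core, 6.75% the AP-1 motif, 6.02% the E-box and 14.0% the hexamer. The stretches of Igf1 and Plin2 held 1 AGGTCA each, and that of Igf1 also 1 AP-1 motif. A match is a description of the letters and not a bound site, and a missing match says only that these letters are not in this window.

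The 4 libraries held 4425, 4731, 2682 and 4202 deposited barcodes for WT sham, WT CVI, IL-6 KO sham and IL-6 KO CVI, of which 992, 2996, 1392 and 2638 were kept. Median depth per kept cell ran from 7801 to 10264.5 UMIs. Il6 RNA was at 10.5 and 4.47 counts per 1000000 UMIs (CPM) in the kept cells of WT sham and WT CVI and at 26.4 and 21.9 CPM in those of IL-6 KO sham and IL-6 KO CVI. Il6 was thus detected, and higher, in the libraries labelled knockout. A 3′ tag outside a deleted part does not check a genotype, and the libraries are called knockout-labelled here. The sham libraries shared 135 deposited barcodes, 23 of them kept in both, and the other pairs of libraries shared 2 to 14. Of the 216 WT CVI members, 1 had a barcode that was also kept in IL-6 KO CVI, where that barcode was not a member.

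Members were found after injury and nearly all of them in the wild type. WT CVI held 216 members of 2996 kept cells, or 7.21% (6.31 to 8.19, exact Clopper-Pearson interval). IL-6 KO CVI held 8 of 2638, or 0.303% (0.131 to 0.597). The sham libraries held 0 of 992 and 0 of 1392, which by the limit of 3 counts over the cells kept leaves room for 0.302% and 0.216%, and by the exact interval for 0.371% and 0.265%. The share in WT CVI was 23.8 times (11.9 to 55.8) that in IL-6 KO CVI. These are 4 mice, and a difference between genotypes cannot be told apart from one between mice or between injuries.

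**Figure D1:**
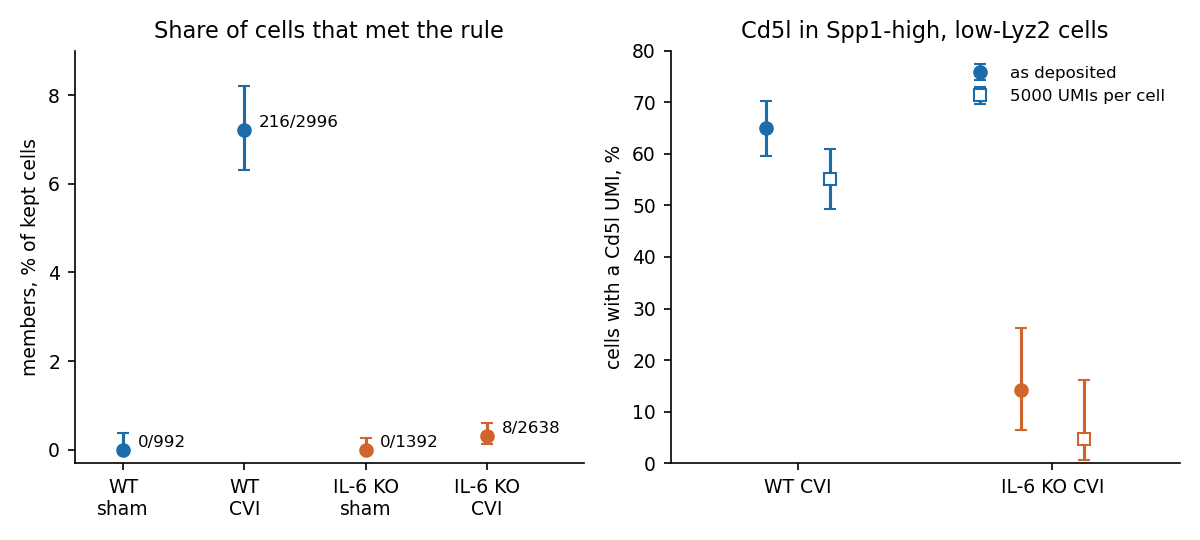
Left, the share of kept cells that were Cd5l/Spp1 cells in each library, in percent, with exact 95% intervals. Right, the share of Spp1-high, low-Lyz2 cells with at least 1 Cd5l UMI in the injured libraries, as deposited (filled) and after thinning each cell to 5000 UMIs (open squares); WT CVI stood at 65.1% and 55.2%, IL-6 KO CVI at 14.3% and 4.76%.

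The Spp1 and Cd5l steps of the rule left few cells in the knockout-labelled library. Spp1 at 50 or more per 10000 was found in 675 WT CVI cells (22.5%) and 72 IL-6 KO CVI cells (2.73%), and in 1 and 0 cells of the sham libraries. Any Cd5l UMI was found in 610 cells (20.4%) of WT CVI, 70 cells (2.65%) of IL-6 KO CVI, and 3 and 5 sham cells. Of the cells with Cd5l, the Spp1, Lyz2 and border-marker steps left 330, 217 and 216 in WT CVI and 13, 8 and 8 in IL-6 KO CVI, so the border markers removed 1 and 0 cells.

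Among cells already high in Spp1 and low in Lyz2, the share with Cd5l again stood apart between the libraries. Cd5l had a UMI in 216 of 332 such cells of WT CVI, or 65.1% (59.7 to 70.2), and in 8 of 56 of IL-6 KO CVI, or 14.3% (6.38 to 26.2), at median depths of 18563 and 15664.5 UMIs. After each cell was thinned to 5000 UMIs, the shares were 160 of 290 cells, or 55.2% (49.2 to 61.0), and 2 of 42, or 4.76% (0.582 to 16.2), with 42 and 14 shallower cells left out. The intervals of the 2 libraries did not overlap in either form, but they cover counting error within 1 mouse each and do not compare genotypes. The summed Cd5l level of these cells was 783 CPM (762 to 805) in WT CVI and 18.4 CPM (10.7 to 29.4) in IL-6 KO CVI. Endothelial-like cells, which should lack Cd5l and so give the level of free RNA, had a UMI in 8 of 85 cells (9.41%) of WT CVI and 0 of 135 of IL-6 KO CVI, at median depths of 4679 and 4331 UMIs, and none of them held more than 2 UMIs.

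Outside the rule, Cd5l was near level between the libraries in Spp1-high cells with high Lyz2, but lower in IL-6 KO CVI in P2ry12 cells. Spp1-high cells with high Lyz2 carried Cd5l in 112 of 339 cells (33.0%) of WT CVI and in 4 of 15 cells (26.7%) of IL-6 KO CVI, at 271 and 261 CPM. In those Lyz2-high cells few cells held most of the RNA. The 10 richest carried 66.8% of the Cd5l UMIs in WT CVI. In IL-6 KO CVI 1 cell held 55 of the 70 Cd5l UMIs, so its level rests largely on that cell. Cells with P2ry12, low Lyz2 and Spp1 under the threshold carried Cd5l in 215 of 1732 cells (12.4%) and 98.4 CPM in WT CVI, and in 50 of 2143 cells (2.33%) and 10.5 CPM in IL-6 KO CVI. Among the P2ry12 cells of the sham libraries, 1 of 756 and 4 of 1176 had a Cd5l UMI.

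The members held many UMIs. The rule itself favours such cells, since a Cd5l UMI is found more readily in a deep cell, so their depth is no separate trait. The 216 WT CVI members held 4801591 UMIs, with a median of 19978.5 a cell (1070 to 72082), against a median of 10264.5 over all kept cells of that library, and the 8 IL-6 KO CVI members held 238352 UMIs with a median of 22836.5 (17918 to 57503). A doublet caller marked 5 of the 216 WT CVI members (2.31%) and none of the 8, against 2.40% and 2.12% of all kept cells in those libraries.

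The rule's edges cut through continuous values. In WT CVI the lowest Spp1 value inside was 50.7 per 10000 and the highest outside was 48.0, with 32 members between 50 and 75 and 44 otherwise matching cells between 25 and 50. The highest Lyz2 inside lay just under the limit of 100 and the lowest outside was 100.8, with 27 members within 25 below the limit and 13 otherwise matching cells within 25 above it. In Cd5l, 26 WT CVI members rested on a single UMI, 73 had 2 to 9, 90 had 10 to 49 and 27 had 50 or more, up to 257. Of the 8 knockout-labelled members, 4 rested on a single UMI and the other 4 had 2 to 5. The 8 were therefore close to the edge of the rule in Cd5l, and none reached the WT CVI median of 12 UMIs.

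The members were set beside 3 other sets of cells from the same injured libraries. Spp1-high cells without Cd5l met the same rule with 0 Cd5l UMIs (116 in WT CVI, 48 in IL-6 KO CVI). Lyz2-high Ms4a7 macrophages had Lyz2 at 100 or more per 10000 and a UMI of Ms4a7 (553 and 70). Lpl/Cst7 microglia had P2ry12, Lpl and Cst7 with Spp1 under 50 per 10000, low Lyz2 and no Cd5l (582 and 623), the lipase and cystatin genes being markers of disease-associated microglia. The names state the rules. The genes in each rule are left out of every count of tested or called genes, but not of the summed levels of marker lists. Median depth was 14667, 17630 and 12101.5 UMIs a cell in the WT CVI sets, and 13898, 12163.5 and 13256 in the IL-6 KO CVI sets.

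Of the secreted factors that label the cells, osteopontin RNA made up a large share of the members' RNA. Spp1 was at 41022 CPM (40842 to 41204) over the WT CVI members and 24527 CPM (23902 to 25164) over the 8 knockout-labelled ones. Single WT CVI members ranged from 50.7 to 2857 UMIs per 10000 with a median of 230.8. The 8 knockout-labelled members ranged from 51.1 to 1037 with a median of 115, and 1 cell held 41.8% of their Spp1 UMIs. In WT CVI, Spp1 was at 25575 CPM in Spp1-high cells without Cd5l, 17318 CPM in Lyz2-high Ms4a7 macrophages and 635 CPM in Lpl/Cst7 microglia, and it was at 9.17 and 12.7 CPM in the P2ry12 cells of the sham libraries. Endothelial-like cells of WT CVI gave 1131 CPM of Spp1, the level found in cells not known for it.

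Cd5l was at 1048 CPM (1019 to 1078) over the WT CVI members and 71.3 CPM (41.5 to 114) over the knockout-labelled members. It was at 198 CPM and 126 CPM in the Lyz2-high Ms4a7 macrophages of the same libraries, whose rule left Cd5l free. In single WT CVI members it ran from 0.301 to 73.7 UMIs per 10000 with a median of 6.50, and in the 8 from 0.230 to 1.17 with a median of 0.714. The ranges of the libraries overlapped only at the low end of WT CVI.

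The growth factor gene Igf1, which the rule did not use, was detected in 212 of 216 WT CVI members and in 7 of the 8 knockout-labelled ones. Its level was 915 CPM (888 to 943) and 508 CPM (421 to 607). In WT CVI it was 755 CPM in Spp1-high cells without Cd5l, 392 CPM in Lyz2-high Ms4a7 macrophages and 181 CPM in Lpl/Cst7 microglia, and the IL-6 KO CVI sets stood in the same order at 505, 248 and 106 CPM. Igf1 was thus as high in Spp1-high cells of the knockout-labelled library with Cd5l as without it, while in WT CVI the members were 1.21-fold (1.14 to 1.29) higher. P2ry12 cells of the sham libraries had 4.75 and 5.38 CPM.

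Plin2, the lipid droplet coat, was at 912 CPM in the WT CVI members, detected in 210 of them, and at 336 CPM in the knockout-labelled members. Lyz2-high Ms4a7 macrophages of WT CVI were level with the members at 901 CPM (ratio 1.01, 0.976 to 1.05), and Lpl/Cst7 microglia were at 219 CPM. Apoc1 did not set the WT CVI members apart: it was at 180 CPM in them, 282 CPM in Spp1-high cells without Cd5l, 123 CPM in Lyz2-high Ms4a7 macrophages and 127 CPM in Lpl/Cst7 microglia, and only 138 of the 216 members had a UMI of it. In IL-6 KO CVI it was at 88.1 CPM in the members against 30.6, 44.6 and 28.1 CPM in the same sets. Of the 5 genes that label the cells, Igf1 and Plin2 were thus above the Lpl/Cst7 microglia in both libraries by the 2-fold call defined below, and Apoc1 in the knockout-labelled one. That Apoc1 level rests on 21 UMIs in 6 of the 8 cells, 10 of them in 1 cell.

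**Figure D2:**
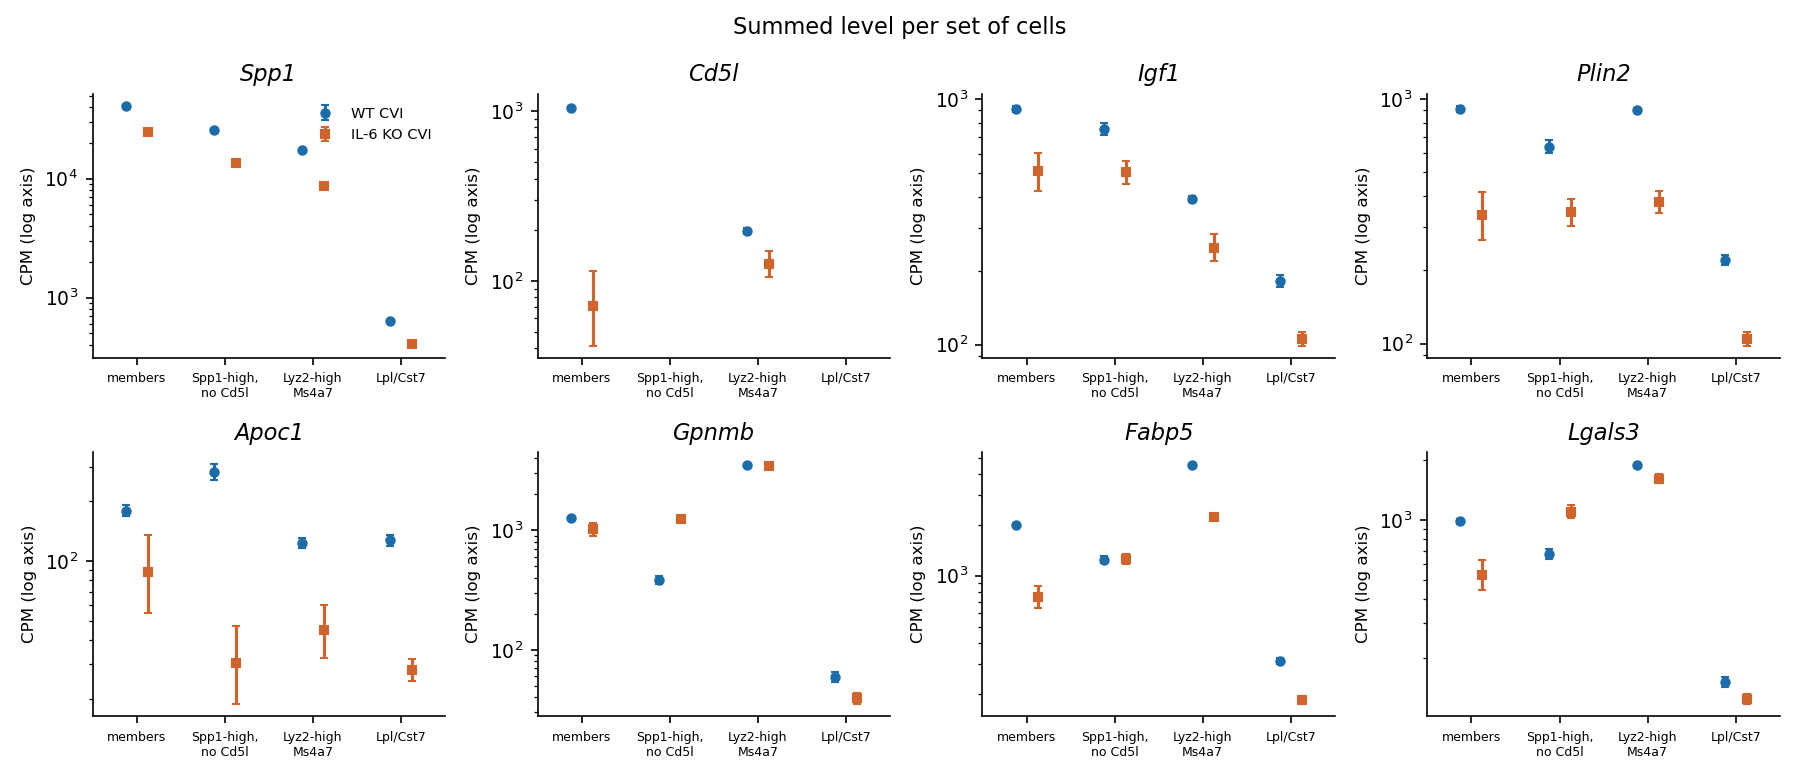
Summed level in CPM (log axis) of 8 genes in the Cd5l/Spp1 cells and the 3 comparison sets of WT CVI (blue circles) and IL-6 KO CVI (orange squares), with exact Poisson intervals of counting error; sets at 0 are not drawn. Gpnmb stood at 1272 CPM in the WT CVI members, 3558 CPM in the Lyz2-high Ms4a7 macrophages and 59.5 CPM in the Lpl/Cst7 microglia.

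RNA of osteopontin receptors was detected in the members. Cd44, the hyaluronan receptor, was at 33.9 CPM in WT CVI members and in Spp1-high cells without Cd5l, 82.0 CPM in Lyz2-high Ms4a7 macrophages and 19.4 CPM in Lpl/Cst7 microglia. Itga4, an integrin alpha chain, was at 11.2 CPM in WT CVI members and 40.6 CPM in the macrophages. It had no UMI in the 8 knockout-labelled members, where the limit of 3 counts is 12.6 CPM. Itgb5, an integrin subunit that pairs with the alpha-v chain, was at 607 CPM in WT CVI members, 681 CPM in Spp1-high cells without Cd5l, 532 CPM in the macrophages and 770 CPM in Lpl/Cst7 microglia, and at 927 CPM in the knockout-labelled members. Itgav, the alpha-v chain, was at 62.5 CPM in WT CVI members and 53.6, 80.6 and 58.6 CPM in the same sets. Lysosomal protease RNA was abundant: Ctsd, cathepsin D, was at 33108 CPM in WT CVI members and 31206 CPM in the knockout-labelled ones, against 20997 and 19770 CPM in Lpl/Cst7 microglia.

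Markers of origin were mixed in the members. After thinning to 5000 UMIs, Sall1 had a UMI in 19.8% (14.5 to 26.0) of 202 WT CVI members, with 14 shallower members left out. The share was 43.7% in Lpl/Cst7 microglia, 29.5% in Spp1-high cells without Cd5l, 5.77% in Lyz2-high Ms4a7 macrophages and 2.44% in endothelial-like cells. The members therefore lay between the microglia and the macrophages for this transcription factor, and above the free-RNA level. Among P2ry12 cells of the sham libraries 71.1% and 75.9% had Sall1.

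Siglech, a microglial lectin receptor gene, stood lower still. It had a UMI in 14.9% (10.2 to 20.5) of the thinned WT CVI members, against 74.7% of Lpl/Cst7 microglia, 34.1% of Spp1-high cells without Cd5l, 10.8% of Lyz2-high Ms4a7 macrophages and 7.32% of endothelial-like cells. The ADP receptor gene P2ry12 had one in 53.5% (46.3 to 60.5) of members and 27.7% of Lyz2-high Ms4a7 macrophages, and Tmem119 in 46.0% (39.0 to 53.2) and 30.7%, with endothelial-like cells at 14.6% and 7.32%. By level, Sall1 was at 48.5 CPM and Siglech at 49.4 CPM in WT CVI members, against 121 and 374 CPM in Lpl/Cst7 microglia.

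On the other side, Ms4a7 had a UMI in 58.9% (51.8 to 65.8) of thinned WT CVI members, 6.42% of Lpl/Cst7 microglia, 33.0% of Spp1-high cells without Cd5l and 7.32% of endothelial-like cells. The Lyz2-high Ms4a7 macrophages stood at 95.3%, where the gene was part of the rule. By level Ms4a7 was at 241 CPM in the members, 29.5 CPM in Lpl/Cst7 microglia and 926 CPM in the macrophages. Ccr2, the chemokine receptor of recruited monocytes, was rare: 1.49% (0.307 to 4.28) of thinned members against 6.33% of Lyz2-high Ms4a7 macrophages, or 5.21 against 21.2 CPM. A cell can thus carry Ms4a7 with almost no Ccr2 RNA in this set.

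The same cells often carried markers of both kinds. Of the 216 WT CVI members as deposited, 28 had Sall1 or Siglech but neither Ms4a7 nor Ccr2, 60 had the reverse, 116 had both and 12 had none, and all 5 members marked as doublets were among the 116. After thinning to 5000 UMIs the numbers were 33 (16.3%), 89 (44.1%), 32 (15.8%) and 48 (23.8%) of 202. The part that free RNA plays in the double detection was not tested.

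The 8 knockout-labelled members carried microglial markers more often than macrophage markers as deposited. Of them, 7 had Sall1, 6 had Siglech, 8 had P2ry12 and 7 had Tmem119, while 4 had Ms4a7 and 0 had Ccr2. As deposited, Ccr2 was also found in only 10 of the 216 WT CVI members. Thinned, 1 of 8 (12.5%) kept Sall1, 62.5% Siglech, 75% P2ry12 and 12.5% Ms4a7. Siglech was at 130 CPM in them against 49.4 CPM in WT CVI members, and Ms4a7 at 79.7 against 241 CPM. The 14 Ms4a7 UMIs of 1 cell made up most of the 19 that the 8 cells held.

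**Figure D3:**
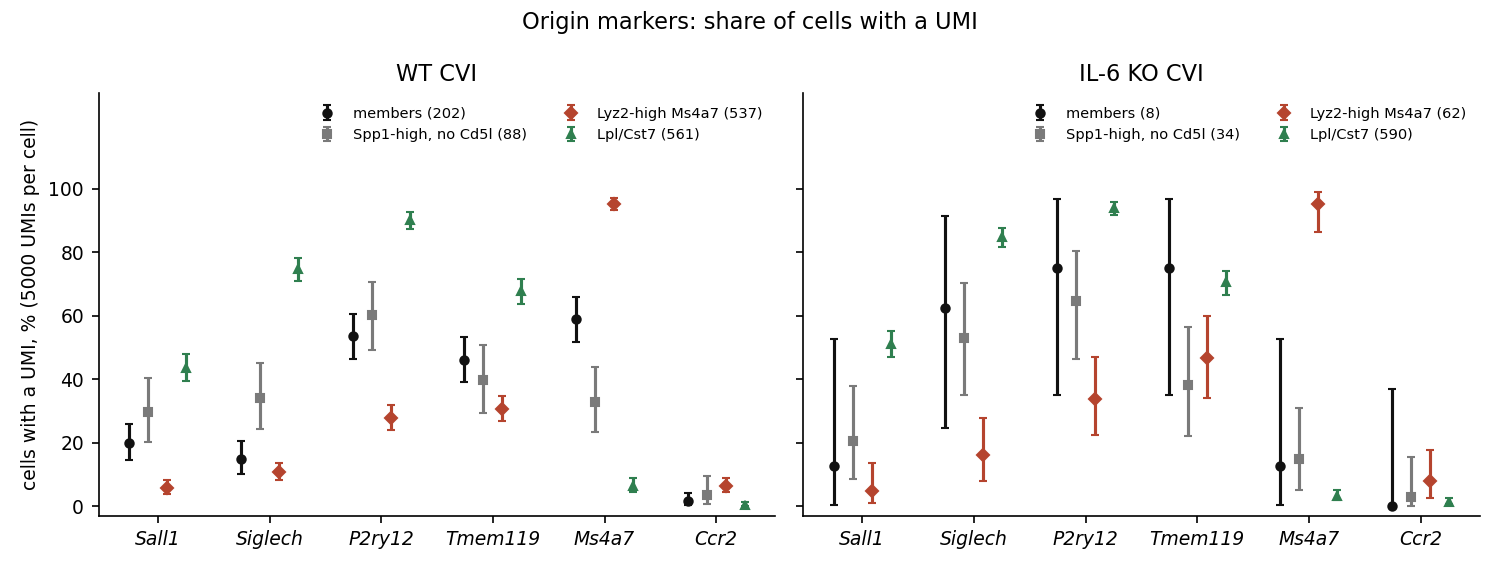
Share of cells with at least 1 UMI of Sall1, Siglech, P2ry12, Tmem119, Ms4a7 and Ccr2 after thinning each cell to 5000 UMIs, in percent with exact intervals, for the Cd5l/Spp1 cells and the 3 comparison sets of each injured library. In WT CVI the members lay between the Lpl/Cst7 microglia and the Lyz2-high Ms4a7 macrophages for Sall1 (19.8%). For Ms4a7 (58.9%) they lay above the Lpl/Cst7 microglia, and the macrophages were high in it by their rule.

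Across the whole list of microglial markers, all 13 were detected in the WT CVI members, with a summed level of 12104 CPM. All 13 were also detected in the knockout-labelled members, with 15234 CPM. In WT CVI the Lpl/Cst7 microglia, Lyz2-high Ms4a7 macrophages and endothelial-like cells had all 13 as well, at 17838, 5187 and 3597 CPM. Detection of the list thus did not set the members apart. Their summed level in WT CVI lay between those of the microglia and the macrophages. All 14 monocyte or macrophage markers were detected in WT CVI members at 5489 CPM, of which Lyz2, which the rule caps, gave 4575. The Lpl/Cst7 microglia and Lyz2-high Ms4a7 macrophages of WT CVI also had all 14, at 2944 and 41243 CPM. In the knockout-labelled members 10 of 14 were detected at 3289 CPM, with Ccr2, Ly6c2, Chil3 and Itga4 at 0. The limit of 3 counts over the 8 cells is 12.6 CPM. The WT CVI levels of Ccr2 and Itga4 given above lay under it, so their 0 does not show absence. The 9 border-associated macrophage markers summed to 710 CPM in WT CVI members, mostly Stab1 at 422 CPM. Of them, Mrc1, Cbr2, F13a1, Cd163 and Lyve1 are genes that the rule limits, so their levels are no evidence of identity. Cd163 and Lyve1 were at 0. Of the marker lists of other cells in WT CVI members, the 5 erythrocyte genes had no UMI, the 8 mural or fibroblast markers summed to 1.46 CPM, the 6 endothelial markers to 10.8 CPM with Cdh5 at 0, the 10 lymphocyte markers to 17.1 CPM with Cd3e at 0, and the 6 neuron markers to 24.8 CPM. The 6 astrocyte markers summed to 43.1 CPM and the 6 oligodendrocyte markers to 81.2 CPM, against 134 and 98.0 CPM in Lpl/Cst7 microglia. Of 9 neutrophil markers 7 were detected, summing to 124 CPM with Ly6g and Ngp at 0, and Csf3r gave 89.8 CPM of it, against 162 CPM in Lpl/Cst7 microglia. Mmp8, a neutrophil collagenase gene in that list, was found in 60 members at 28.5 CPM, against 31.7 CPM in Lyz2-high Ms4a7 macrophages and 0.541 CPM in Lpl/Cst7 microglia. The dendritic cell list summed to 50.2 CPM, of which Siglech, also a microglial gene, gave 49.4. The part of such RNA in the results was not tested. The label of myeloid cells was met, and the word repair was not examined, since no function was measured. Arg1, arginase 1, often used to mark reparative macrophages, was at 13.7 CPM and found in 2 of the 216 WT CVI members and in 0 of the 8.

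Cells that shared the high Spp1 and low Lyz2 but had no Cd5l UMI were close to the members. For each comparison a gene was called with at least a 2-fold ratio after adding 10 CPM to both sides, at least 20 CPM in 1 set and at least 50 UMIs over both. In WT CVI 10 of 5156 genes (0.194%) were higher and 21 (0.407%) lower in the members. When the sets were scaled by the median of their gene ratios, the split was 14 higher and 18 lower. Of 2315 genes in IL-6 KO CVI, 24 (1.04%) were higher and 64 (2.76%) lower, or 33 and 51 with that scaling, and 1 higher and 8 lower genes were called in both libraries.

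Gpnmb, a membrane glycoprotein gene induced in lysosome-loaded macrophages, differed between these sets in WT CVI. It was at 1272 CPM in members and 383 CPM in Spp1-high cells without Cd5l, 3.32-fold (3.06 to 3.62) higher, but at 1020 against 1243 CPM in IL-6 KO CVI, which is 1.22-fold (1.06 to 1.41) lower. Gpnmb stood in the same list of reparative genes as Gas6, a bridging ligand for the uptake of dying cells, at 400 against 294 CPM in WT CVI and 331 against 147 CPM in IL-6 KO CVI. Wfdc17, a secreted antiprotease-like protein gene, was 2.30-fold (2.01 to 2.64) higher in WT CVI, and Ctla2a, a cathepsin inhibitor-like gene, 2.07-fold (1.80 to 2.37) higher there and 6.02-fold (3.95 to 9.34) in IL-6 KO CVI. Folr2, a folate receptor gene of tissue macrophages, was at 156 against 86.9 CPM and Stab1, a scavenger receptor gene, at 422 against 247 CPM in WT CVI, both short of the call.

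Genes lower in the members included chemokines and antigen presentation genes. In WT CVI Ccl9 was 5.01-fold (4.26 to 5.91) lower, Ccl6 4.23-fold, Ccl12 2.22-fold and Ifi27l2a, an interferon-inducible gene, 2.88-fold (2.66 to 3.12). In IL-6 KO CVI Ccl9 was 3.97-fold, Ccl6 3.82-fold and Ifi27l2a 2.44-fold lower. Fn1, fibronectin, was at 122 against 284 CPM in WT CVI and 46.2 against 186 CPM in IL-6 KO CVI. Only 43 of the 216 WT CVI members had a Fn1 UMI, and the endothelial-like cells of that library held 663 CPM of it.

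Of 6 tested MHC class II genes, 4 were lower in the members in each library, with a median log2 ratio of -1.42 in WT CVI and -3.90 in IL-6 KO CVI, against -0.04 and -0.07 over all genes. These RNAs sat in few cells. H2-Aa, H2-Ab1, H2-Eb1 and Cd74 had 703 UMIs in the 216 WT CVI members, 74.7% of them in 4 cells, and 876 UMIs in the 116 Spp1-high cells without Cd5l, 89.8% of them in 2 cells. Among the IL-6 KO CVI cells, 11 of 48 without Cd5l held 97.1% of the 1719 UMIs, and the 8 members held 17 UMIs. The WT CVI difference thus rests on a handful of cells.

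The members differed from the Lyz2-high Ms4a7 macrophages in genes of both directions. In WT CVI 90 of 5158 genes (1.74%) were higher and 119 (2.31%) lower. The knockout-labelled library gave 128 higher of 2875 (4.45%) and 160 lower (5.57%), and 41 higher and 55 lower genes were called in both libraries. The comparisons of the libraries use different cells of different mice.

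Microglial markers were among the genes higher in the members. Of 12 tested microglial markers, 6 were higher and 0 lower in WT CVI, median log2 1.00, and in IL-6 KO CVI 9 of 11 were higher, median 1.29, against 0.06 and 0.03 over all genes. Sparc, a matrix-binding glycoprotein that microglia secrete, was at 1270 against 376 CPM in WT CVI and 2052 against 441 CPM in IL-6 KO CVI. Fcrls, a microglial Fc receptor-like gene, was 2.76-fold (2.68 to 2.85) and 3.33-fold (2.97 to 3.72) higher. Siglech was an exception in WT CVI at 49.4 against 39.2 CPM. The homeostatic list gave 8 higher of 22 in WT CVI and 12 higher with 1 lower, Entpd1, of 21 in IL-6 KO CVI.

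Other genes on the higher side had varied roles. Serpine2, a secreted protease inhibitor, was at 574 against 123 CPM, 4.67-fold (4.37 to 4.98) higher in WT CVI and 4.55-fold in IL-6 KO CVI. Cst7, cystatin F, was 4.24-fold and 5.26-fold higher, Cd81, a tetraspanin, 3.87-fold (3.71 to 4.02) and 3.77-fold, and Phgdh, the first enzyme of serine synthesis, 4.55-fold and 9.80-fold. Ch25h, which makes 25-hydroxycholesterol, was at 60.6 against 10.2 CPM, 5.97-fold (4.79 to 7.48) higher, and 16.0-fold (8.74 to 31.1) higher in IL-6 KO CVI. Csf1, the growth factor of macrophages and microglia, was at 199 against 63.4 CPM and 281 against 50.7 CPM. Lpl, lipoprotein lipase, was 3.37-fold (3.19 to 3.57) and 3.15-fold (2.61 to 3.81) higher. Igf1 was 2.33-fold (2.24 to 2.43) and 2.04-fold (1.63 to 2.55) higher.

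Genes on the lower side included lysosomal, matrix and monocyte genes. Cd93, a myeloid C-type lectin-like receptor, was 29.0-fold (18.9 to 47.0) lower in WT CVI, Clec12a, an inhibitory lectin receptor of myeloid cells, 19.6-fold, Acp5, an acid phosphatase of osteoclasts and foam cells, 13.3-fold (10.4 to 17.2), and Atp6v0d2, a subunit of the proton pump, 18.7-fold. Ccl7, a monocyte chemoattractant, was 9.72-fold lower. Thbs1, thrombospondin 1, was 5.57-fold (4.88 to 6.38) lower in WT CVI and 11.9-fold (4.00 to 58.5) in IL-6 KO CVI. Vegfa, the vascular growth factor, was at 6.66 CPM in members and 34.0 CPM in the macrophages of WT CVI.

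The lipid and lysosome groups were split. Gpnmb was 2.80-fold (2.72 to 2.87) lower in members of WT CVI and 3.39-fold (2.98 to 3.88) in IL-6 KO CVI, and Fabp5, a fatty acid-binding protein, was at 2003 against 4542 CPM and 751 against 2215 CPM. Fabp3, another fatty acid-binding protein, was instead 2.54-fold (2.30 to 2.80) and 2.76-fold (1.68 to 4.48) higher. Of 17 tested genes of lipid uptake and storage, 2 were higher and 3 lower in WT CVI, and of 25 lysosomal genes 3 and 3. Apoe was at 65549 CPM in members and 108217 CPM in macrophages, 1.65-fold lower and short of the call, and Apoc2 was 2.37-fold lower. Ttr, transthyretin, made mainly by the choroid plexus in the brain, was 60.4-fold lower.

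The members were next compared with the Lpl/Cst7 microglia. In WT CVI 87 of 5371 genes (1.62%) were higher and 103 (1.92%) lower in the members. The knockout-labelled library gave 138 higher of 5843 (2.36%) and 295 lower (5.05%). With scaling by the median of gene ratios, the split was 115 higher and 76 lower in WT CVI and 184 and 238 in IL-6 KO CVI, since that scaling moved the median log2 ratio of all genes from -0.11 and -0.08 to 0. Both libraries called 44 higher and 43 lower genes in common.

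Some lipid handling genes were higher. Of 17 tested genes of lipid uptake and storage, 7 were higher and 0 lower in WT CVI (8 and 0 with the other scaling), with a median log2 ratio of 0.74 against -0.11 over all genes, and in IL-6 KO CVI 5 of 16 were higher and 0 lower, median 0.44. Gpnmb, of the lysosome list, was 21.4-fold (19.4 to 23.6) higher in WT CVI and 26.0-fold (22.0 to 30.8) in IL-6 KO CVI. Fabp5 was 6.37-fold (6.09 to 6.67) and 4.11-fold higher and Plin2 4.16-fold (3.92 to 4.40) and 3.20-fold. Hilpda, an inhibitor of triglyceride lipase that hypoxia and fatty acids induce, was at 186 against 46.7 CPM in WT CVI. The scavenger receptor genes Cd36 and Msr1 were at 24.8 against 3.38 CPM and 50.2 against 14.7 CPM. Of 15 tested apolipoprotein and liver X receptor target genes, 3 were higher and 1 lower in WT CVI, with Apoc2 and Apoc4 3.40-fold and 3.22-fold higher. Pla2g7, in none of these lists, which makes a lipoprotein-bound phospholipase, was 11.6-fold (8.95 to 15.4) higher.

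Secreted growth factor, lectin and matrix genes were next. Igf1 was 5.05-fold (4.75 to 5.37) higher in WT CVI and 4.80-fold (3.94 to 5.81) in IL-6 KO CVI. Lgals3 and Lgals1, which encode galectins, were 6.51-fold and 5.72-fold higher in WT CVI and 4.24-fold and 5.28-fold in IL-6 KO CVI. Vim, vimentin, was 4.67-fold and 4.04-fold higher, and Fn1 was at 122 against 30.4 CPM in WT CVI. Of 12 tested matrix genes, 5 were higher and 1, Sparc, lower in WT CVI, and Sparc was not past the fold with the other scaling. Gas6 was 2.05-fold (1.91 to 2.19) and 2.36-fold (1.85 to 2.96) higher. Pdgfb, a growth factor for pericytes, was at 53.5 against 119 CPM in WT CVI, and 101 against 140 CPM in IL-6 KO CVI.

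Some cytokine genes and homeostatic genes were lower. Of 21 tested cytokines and chemokines, 0 were higher and 8 lower in WT CVI (7 with the other scaling), median log2 -0.75, and in IL-6 KO CVI 2 of 20 were higher and 5 lower. Il1a was 3.64-fold lower, Ccl9 6.51-fold, Ccl12 3.99-fold, and Gpr84, a receptor for medium-chain fatty acids, 4.51-fold in WT CVI. Tnf was at 221 against 508 CPM in WT CVI and 239 against 610 CPM in IL-6 KO CVI. Siglech was 7.59-fold (6.64 to 8.70) lower in WT CVI and 3.59-fold (2.53 to 5.30) in IL-6 KO CVI. Of 22 tested homeostatic genes, 9 were lower and 0 higher in WT CVI (6 lower with the other scaling) and 5 were lower in IL-6 KO CVI, among them Cst3, cystatin C, at 9077 against 22695 CPM in WT CVI.

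**Figure D4:**
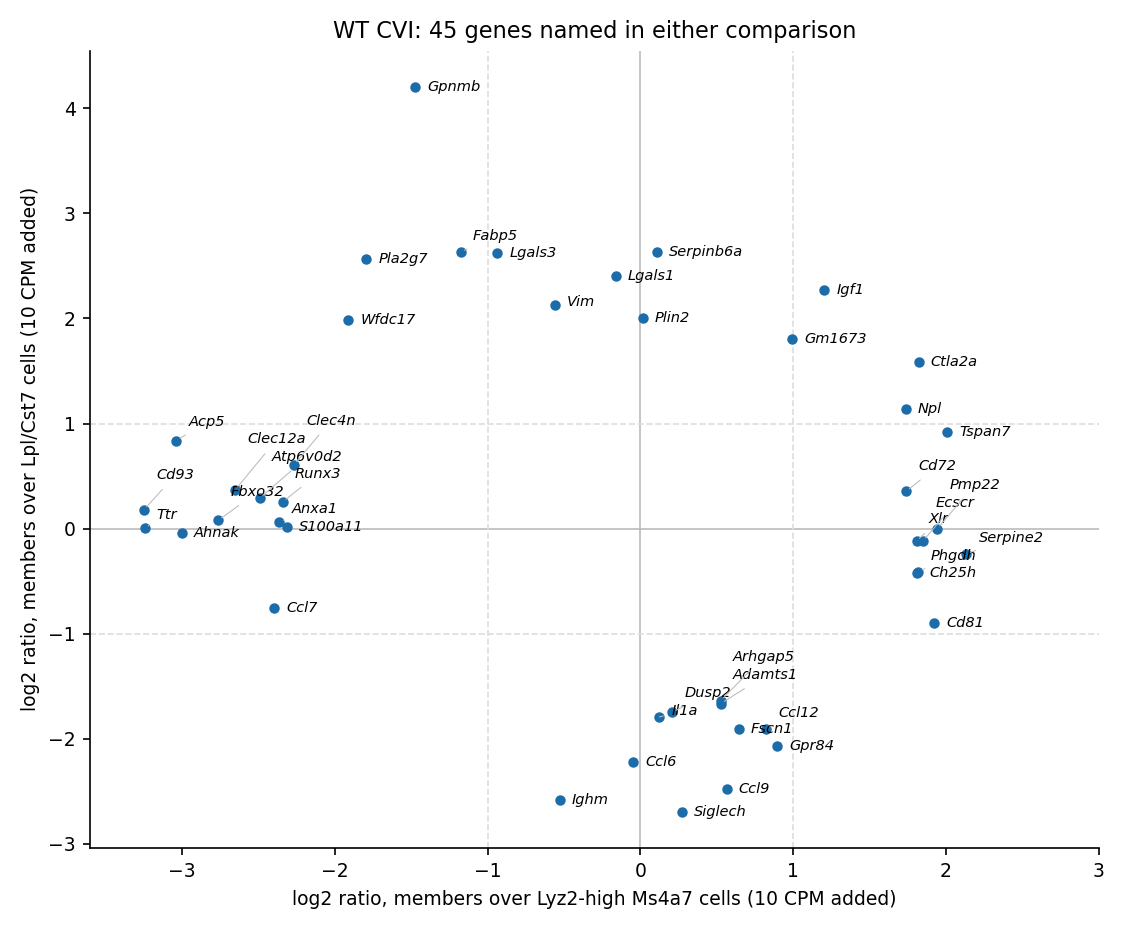
Log2 ratio of the WT CVI Cd5l/Spp1 cells over the Lyz2-high Ms4a7 macrophages (horizontal) and over the Lpl/Cst7 microglia (vertical) for 45 named genes, with dashed lines at 2-fold; ratios were taken after adding 10 CPM. Gpnmb, Fabp5 and Lgals3 lie upper left, below the macrophages and above the microglia, and Igf1 lies upper right.

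Of these 45 genes, 17 were lower than in the macrophages and higher than in the microglia, 16 the reverse, 8 higher than in both and 4 lower than in both, whatever the size of the ratio. The genes were picked for a large ratio in one of the comparisons, so their side in that comparison follows from the choice. Igf1, Ctla2a and Npl, a sialic acid lyase gene, were at least 2-fold above both. Folr2, not among the 45, was 2.92-fold (2.62 to 3.26) above the macrophages and 2.66-fold (2.36 to 3.00) above the microglia in WT CVI.

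Within the 216 WT CVI members, the summed levels of several genes differed with the number of Cd5l UMIs, the genes being chosen after their values were seen. In the cells with 1, 2 to 9, 10 to 49 and 50 or more Cd5l UMIs, Gpnmb was at 545, 1000.4, 1250 and 2246 CPM and Fabp5 at 1290, 1711, 1999 and 2965 CPM. Plin2 went from 644 to 779, 921 and 1290 CPM and Serpinb6a, a protease inhibitor gene, from 130 to 206, 349 and 428 CPM. Siglech was at 53.1, 72.0, 43.0 and 18.9 CPM and Fn1 at 256, 183, 88.4 and 13.9 CPM. Igf1 moved little, at 873, 876, 911 and 1025 CPM, and Sall1 was at 55.5, 49, 50.4 and 39.1 CPM. Median depth rose along the same classes from 16996.5 to 18610, 20170.5 and 27156 UMIs a cell, and its part in these levels was not tested.

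**Figure D5:**
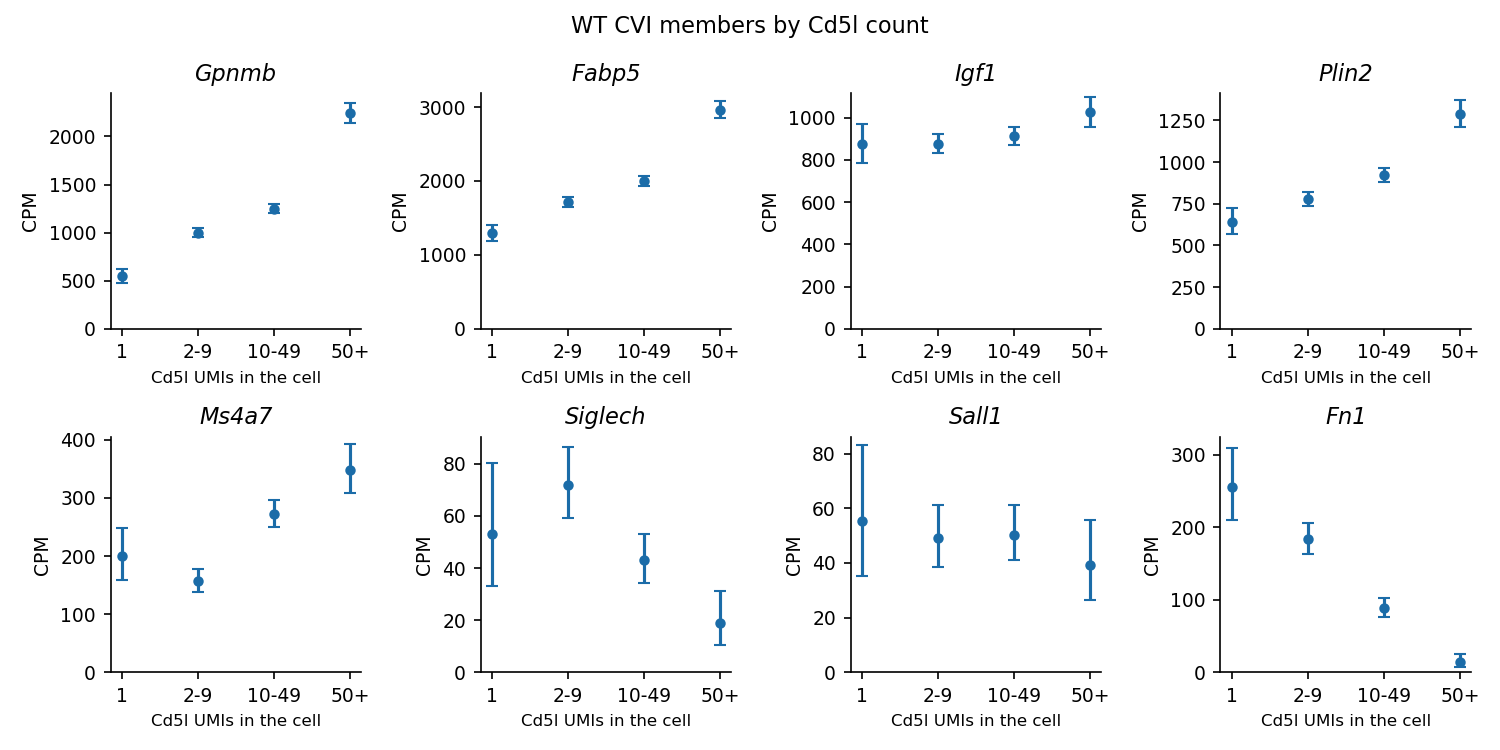
Summed CPM of 8 genes in the WT CVI Cd5l/Spp1 cells grouped by their Cd5l UMIs (1, 2 to 9, 10 to 49, 50 or more), with exact Poisson intervals; the axes start at 0. Gpnmb went from 545 to 2246 CPM, Igf1 from 873 to 1025 CPM, and Fn1 from 256 to 13.9 CPM.

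From cell to cell the relations were weak. Over 202 WT CVI members thinned to 5000 UMIs, Spearman's rho of Cd5l was 0.25 with Gpnmb, 0.18 with Fabp5, 0.33 with Ms4a7 and 0.34 with Ctsd, and it was 0.08 with Plin2, 0.06 with Spp1, 0.04 with Igf1 and 0.04 with Lgals3. Plin2 thus differed between the classes in summed level but hardly ran with Cd5l over thinned cells. Spp1 was at 45788, 35883, 36227 and 60971 CPM in the same classes. The closest pair was Gpnmb and Fabp5 at 0.52, and Gpnmb had a rho of 0.35 with the depth of the cell before thinning. These are descriptions over cells of 1 mouse and 1 library.

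Levels also differed with the origin markers detected. The 28 members with Sall1 or Siglech alone had Cd5l at 198 CPM, Gpnmb at 460 CPM and Fabp5 at 1027 CPM. The 60 members with Ms4a7 or Ccr2 alone had Cd5l at 1177 CPM, Gpnmb at 1450 CPM and Fabp5 at 2174 CPM, and the 116 with both were near them at 1159, 1364 and 2125 CPM. Median depth was 18254, 18876 and 22891.5 UMIs. Spp1 was at 41873 CPM in the first, 29049 CPM in the second and 43553 CPM in the third, so Cd5l and Gpnmb were lowest in the first, while Spp1 was lowest in the second.

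The 8 knockout-labelled members differed from the 216 in more than number, within what 8 cells can show. Of 5511 genes, 104 (1.89%) were higher and 141 (2.56%) lower in them, or 81 and 171 with scaling by the median of gene ratios. The 8 held only 1 to 5 Cd5l UMIs each. Against the 77 WT CVI members with at most 5 Cd5l UMIs, 42 of 3781 genes were higher and 85 lower. Of these, 29 higher and 66 lower genes were also in the first counts. The part of the Cd5l count in the ratios between the libraries was not tested. Of 17 tested genes of lipid uptake and storage 0 were higher and 3 lower, median log2 -0.24 against 0.07 over all genes. The 3 were Fabp5, 2.67-fold (2.30 to 3.11) lower, Plin2, 2.72-fold (2.18 to 3.43), and Hilpda, 3.42-fold (1.99 to 6.44). Hilpda had 13 UMIs in 3 of the 8 cells, 10 of them in a single cell. Of 15 tested apolipoprotein and liver X receptor target genes 0 were higher and 3 lower, among them Apoc2, 2.87-fold (1.91 to 4.55), and the cholesterol exporter gene Abca1, 2.52-fold (1.87 to 3.46). Igf1 was 1.80-fold (1.5 to 2.18) lower and Gpnmb 1.25-fold (1.10 to 1.42) lower, both short of the call.

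Of 6 tested monocyte or macrophage markers, 0 were higher and 2 lower in the 8. Among other genes, Folr2 had 3 UMIs in 2 of the 8 cells and 748 UMIs in 159 of the 216, 12.4-fold (4.22 to 60.2) lower. Wfdc17 was 4.91-fold (3.06 to 8.45) lower, Serpinb6a 4.16-fold (2.59 to 7.15), Ms4a7 3.02-fold (1.93 to 5.04) and Stab1 2.39-fold (1.76 to 3.33). Rsad2, an interferon-induced antiviral gene, had 0 UMIs in the 8 cells and 556 in the 216, at least 9.20-fold lower with the floor set at 3 counts over the 8 cells. Those 556 UMIs were found in 54 cells, and 5 cells held 77.7% of them.

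Of 13 tested microglial markers, 3 were called higher in the 8 and 0 lower (2 higher with the other scaling). Siglech was 2.63-fold (1.75 to 3.84), P2ry12 2.14-fold (1.72 to 2.63) and Selplg, a selectin ligand gene, 2.62-fold (2.15 to 3.16) higher. Other genes were higher too: Cst7 was 2.26-fold (1.91 to 2.65) higher, Gpr84 2.68-fold (2.05 to 3.45), Ccl9 3.07-fold (2.10 to 4.38), Cd34 4.43-fold (3.09 to 6.21) and Fscn1, an actin-bundling gene, 4.44-fold (2.89 to 6.64). Cd34 and Fscn1 were detected in 6 and 7 of the 8 cells. Several of the highest ratios came from a single cell, which held all 34 UMIs of Igfbp5, all 26 of Mmp12, all 26 of Acp5, 27 of 30 of Il1rn and 44 of 59 of Irf7 in turn, not always the same cell.

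The same libraries were also compared over Spp1-high cells without Cd5l. There, 51 of 4747 genes (1.07%) were higher and 33 (0.695%) lower in IL-6 KO CVI than in WT CVI. Apoc1 was at 30.6 against 282 CPM, 9.23-fold (5.96 to 15.1) lower, and Gpnmb at 1243 against 383 CPM. Gpnmb was thus higher in the knockout-labelled cells among those without Cd5l and lower among the members, on either scaling, and the difference between these ratios was not tested.

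Genes of the IL-6 pathway were detected at varied levels. Of 9 tested between the members of the libraries, 1 was higher in the 8 and 0 lower, against 1.89% and 2.56% of all genes. The 1 was Il11ra1, with 20 UMIs in 7 of the 8 cells and 161 UMIs in 108 of the 216. Il6 had 6 UMIs in 4 of the 216 WT CVI members (1.25 CPM) and 6 UMIs in 3 of the 8 knockout-labelled ones (25.2 CPM). Il6 was under the filter of 50 UMIs and so was not among the 9. The receptor chain Il6ra was at 47.3 CPM in WT CVI members and 50.3 CPM in the 8, against 92.3 and 100 CPM in Lpl/Cst7 microglia. The shared signalling chain Il6st was at 36.0 and 42.0 CPM. Socs3, which STAT3 induces and which feeds back on the receptor, was at 200 CPM in WT CVI members, 403 CPM in Lpl/Cst7 microglia and 128 CPM in Lyz2-high Ms4a7 macrophages, and at 390 CPM in the 8. Between the libraries Socs3 was short of the call, and 44 of the 93 UMIs in the 8 came from 1 cell.

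Proliferation marked few members. Mki67 was detected in 30 of the 216 WT CVI members at 38.3 CPM and Top2a in 28 at 31.4 CPM, and each in 1 of the 8. Of 7 tested G2/M genes, 3 were higher and 0 lower in WT CVI members than in Lyz2-high Ms4a7 macrophages (2 with the other scaling). Over all genes, 1.74% were higher and 2.31% lower there. None of 8 passed against the Lpl/Cst7 microglia in WT CVI (1 higher with the other scaling). G2/M RNA sat in part of the members: Birc5, Ube2c and Cdk1 were found in 30, 38 and 83 of the 216. The richest cell held 14.8%, 20.4% and 9.70% of their UMIs.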

How the data were processed

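RNA of single CD11b-selected brain cells was measured with 3′ tag libraries, 1 per group, in 4 mice. The authors deposited raw UMI counts per gene and barcode, made with Cell Ranger 6.0.1 against mm10 per the submitters' processing notes, and every value was a whole number. All 32285 features were read; 38 symbols occurred more than once and were kept apart by gene ID. Members and comparison sets were cut from these counts by fixed thresholds with no clustering. The members, gene lists and tests were chosen with earlier results of these data known.

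For each set the counts were summed and divided by the set's total (CPM), with exact Poisson intervals for levels, exact conditional binomial intervals for ratios and Clopper-Pearson intervals for shares. With 1 library a group there is no residual spread, so no model was fitted and no p-value given. Log2 ratios used a prior of 10 CPM. A gene was tested with at least 20 CPM in 1 set and 50 UMIs over both and called at 2-fold. This rule was tested on simulated counts with counting error only, at the WT CVI set sizes and with changes larger than 2-fold. That setting covers neither the small IL-6 KO CVI sets nor uneven RNA between cells. PCR copies were already collapsed by UMI, and intervals cover counting error only. To compare shares of cells with a UMI across depths, each cell was thinned to 5000 UMIs. Doublets were marked with Scrublet in scanpy 1.11.5 at an expected 0.8% per 1000 cells; they were kept, and leaving them out was an alternative. Median-of-ratios scaling, equal weight per cell, other priors, filters and thresholds of the rule were the other alternatives.

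The genes named are the genes of the rule, the label and origin markers, the 12 highest and 12 lowest called genes per comparison with the same sign in both injured libraries, and the most abundant called genes of 35 gene lists. A few genes named for contrast within those lists were chosen after their values were seen. Clec7a and Mx1 are not analysed here. Python 3.11.15, numpy 2.4.6, scipy 1.17.1 and pandas 2.3.3 were used.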

Additional observations from a re-analysis of the deposited data

Results flagged for a closer look

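Rsad2, an interferon-induced gene, moved in opposite directions in the injured libraries. Its log2 ratio of Cd5l/Spp1 cells in WT CVI was 1.07 over Lyz2-high Ms4a7 macrophages and 1.41 over Lpl/Cst7 microglia. In IL-6 KO CVI the members had no UMI of it, and with the floor at 3 counts over the 8 cells they were at least 9.83-fold lower than the macrophages and at least 2.31-fold lower than the microglia. The difference between the libraries was not tested, since each is 1 mouse. The WT CVI members held 556 UMIs of it, 77.7% of them in 5 cells, and the 8 knockout-labelled members held 0.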

How the results depend on the processing

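No paired analysis was possible because each group is 1 library. The sham libraries held 0 members throughout, and the share in IL-6 KO CVI moved beyond its interval only with Cd5l at 10 or more UMIs, which left 0 cells (0.0%) and so no value for the 3 comparisons of that library. In WT CVI the share of 7.21% became 8.68% with Spp1 at 25 or more per 10000, 5.51% at 100 or more, 3.91% with Cd5l at 10 or more, 4.61% with Lyz2 under 50, 8.44% with Lyz2 under 200, 8.46% with at most 5% mitochondrial UMIs and 6.21% after thinning to 5000 UMIs. Shares of members with an origin marker rest on depth: without thinning they were 52.3% (Sall1), 33.8% (Siglech), 83.3% (P2ry12), 77.8% (Tmem119), 80.6% (Ms4a7) and 4.63% (Ccr2) in WT CVI, and at 3000 UMIs 11.2% (Sall1), 36.1% (P2ry12), 27.8% (Tmem119) and 40.5% (Ms4a7). In the 8 cells of IL-6 KO CVI, Sall1 was 87.5% and P2ry12 100% without thinning, and Siglech 12.5% and Ms4a7 0.0% at 3000 UMIs. Cd5l at 2 or more UMIs left 4 cells, in which Sall1 was 0.0% and P2ry12 100% after thinning to 5000 UMIs. Before thinning, all 4 of these cells had Sall1, at 3, 5, 1 and 1 UMIs.

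Counts of genes at least 2-fold apart moved with the prior, the filter and the rule's thresholds. Against Spp1-high cells without Cd5l in WT CVI, 10 higher and 21 lower became 22 and 42 with a prior of 1 CPM, 1 and 6 with 50 CPM, 16 and 47 with cells weighted equally, and 20 and 42 with Cd5l at 10 or more. For IL-6 KO CVI, 24 and 64 became 10 and 20 with 50 CPM, 212 and 479 with no filter, 40 higher with equal weights, and 48 and 127 with Cd5l at 2 or more. Against Lyz2-high Ms4a7 macrophages in WT CVI, 90 and 119 became 162 higher with a prior of 1, 34 and 41 with 50, and 71 lower with a 50 CPM filter. For IL-6 KO CVI, 128 and 160 became 73 and 64 with a prior of 50, 517 and 532 with no filter, and 254 lower with Spp1 at 100 or more. Against Lpl/Cst7 microglia in WT CVI, 87 and 103 became 133 and 184 with a prior of 1, 28 and 37 with 50, and 162 lower with Cd5l at 10 or more. In IL-6 KO CVI, 138 and 295 became 325 and 560, 32 and 34, 85 and 131 with a 50 CPM filter, 449 lower with no filter, 217 higher with Cd5l at 2 or more, and 351 and 735 with Spp1 at 100 or more. Between the members of the libraries, 104 and 141 became 291 and 315 with a prior of 1, 26 and 16 with 50, 188 and 235 with no filter, 67 and 61 with a 50 CPM filter, 235 and 297 with Cd5l at 2 or more, 224 and 384 with Spp1 at 100 or more, 42 and 85 with WT CVI members of at most 5 Cd5l UMIs, and 42 lower over all Spp1-high, low-Lyz2 cells. The settings with Cd5l at 10 or more, at most 5 Cd5l UMIs and all Spp1-high cells were chosen after seeing the data. Of 1429 recomputed ratios of single genes, 1107 stayed within or close to their counting interval and 319 moved outside it, whether larger or smaller. A change of sign was counted apart only for ratios of at least 2-fold, and 3 of those turned. They were Wfdc17 against Lpl/Cst7 microglia in IL-6 KO CVI (log2 -0.028 with Spp1 at 100 or more), and Il1rn (-1.63) and Tyms (-0.98) between the libraries with Cd5l at 2 or more. Leaving out marked doublets moved no share beyond its interval and no count by over 1.5 times. The 8 cells, 238352 UMIs in all, are what limits the IL-6 KO CVI values: 1 UMI there is 4.20 CPM.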
